A study of Mus musculus with 6 samples.

Results

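The genes of the integrated stress response and the unfolded protein response were followed in mouse multiciliated ependymal cell cultures with and without Edf1. The set holds 40 genes, taken by symbol from the 22851 genes of the deposited count table. It was grouped by role into 4 kinases that phosphorylate the translation factor eIF2alpha, 7 transcription factors of the integrated stress response, 8 stress and feedback targets of ATF4, 7 enzymes of amino acid and one-carbon synthesis, 4 amino acid transporters, 8 chaperones and folding or degradation factors of the endoplasmic reticulum (ER), and 2 transcription factors of the unfolded protein response. All 40 had a row in the table, and 39 passed the filter on low counts.

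The cells were radial glial cells, the progenitors that line the ventricles of the developing brain, isolated from the brains of mouse pups at postnatal day 0 to 3 on a C57BL/6J background. The wild-type (WT) group came from unmodified mice, and the other group from Edf1 knockout mice made with CRISPR/Cas9. Both groups were grown in DMEM with 10% fetal bovine serum and then kept for 6 days in DMEM without serum, which starts differentiation into multiciliated ependymal cells. Each genotype has 3 libraries, given as biological replicates. The labels name no cell sorting, no founder line of the knockout and no number of pups behind a library, so the p-values measure the spread between these cultures.

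When cells are stressed, 4 kinases can phosphorylate eIF2alpha: HRI (Eif2ak1), PKR (Eif2ak2), PERK (Eif2ak3) and GCN2 (Eif2ak4). Phosphorylated eIF2alpha lowers general protein synthesis but allows more translation of the mRNA for the transcription factor ATF4, which then raises genes for amino acid synthesis, amino acid uptake and stress feedback. In the unfolded protein response, PERK, ATF6 and the XBP1 branch report on protein folding in the ER, and ATF6 and XBP1 raise ER chaperones. GCN2 is known to respond to uncharged tRNA and to stalled ribosomes, and EDF1 is known both as a transcriptional coactivator and as a protein that binds collided ribosomes. Gene counts measure mRNA level alone: phosphorylation, translation of Atf4 mRNA and splicing of Xbp1 mRNA were not analysed here.

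Library totals ran from 13071766 to 28087006 counts, and the lowest was WT replicate 2. Levels are given as CPM, a gene's counts relative to a library size scaled by TMM, and differences as the log2 change, the log2 ratio of knockout over WT from edgeR. Edf1 itself was at 82.6, 85.8 and 80.1 CPM in WT replicates 1, 2 and 3 and at 9.83, 10.9 and 13.2 CPM in the knockout, which matched the labels in all 6 libraries. The 11 markers of multiciliated ependymal cells were present in both genotypes, with a summed level of 2625 to 2755 CPM in WT and 1534 to 1664 CPM in the knockout, and all 11 were called lower. Other cell types also moved: the 11 microglia markers summed to 1992 to 2146 CPM in WT and 1312 to 1346 CPM in the knockout, with 10 called lower, and the 13 markers of fibroblast, mural and endothelial cells to 853 to 913 CPM and 1056 to 1176 CPM, with 8 of 9 tested called higher and Rgs5, Pecam1, Cdh5 and Cldn5 too low to be tested. Most of that last sum was Acta2 (log2 change 0.30) and Tagln (0.20). The 9 tested markers ran from -0.091 (Pdgfra) to 1.25 (Dcn), with a median of 0.80. The 11 radial glia and astrocyte markers summed to 10490.0 to 10980.1 CPM in WT and 11410.3 to 11844 CPM in the knockout, with Fabp7, Aldh1l1 and Nes called higher and Gfap lower. The 9 neuronal markers summed to 254 to 329.8 CPM and 274 to 290.2 CPM, most of it Map2, and of the 7 tested Dcx (-1.61) and Tubb3 (-0.81) were called lower. The 8 oligodendrocyte lineage markers summed to 439 to 479 CPM and 412 to 428 CPM, and of the 6 tested Cspg4 was called higher and Cnp lower. None of these markers was at 0 in every library. The part of such cell type shifts in the results below was not tested, and in bulk RNA fewer cells of a type and less RNA per cell cannot be told apart.

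Of the 39 tested genes, 11 were higher and 4 lower in the knockout at an adjusted p under 0.05 in edgeR's quasi-likelihood test, a share of 38.5% where 26.9% of all 14243 tested genes were called (12.7% higher, 14.2% lower). The higher genes were Ddit3, Atf4, Gdf15, Sesn2, Shmt2, Asns, Xbp1, Dnajb9, Hsp90b1, Herpud1 and Hspa5. The lower genes were Psph, Mthfd2, Creld2 and Eif2ak1. Most of these changes were small, and 3 of the 39 genes (Ddit3, Gdf15 and Shmt2) were called with a change of at least 1.5-fold, a share of 7.69% beside 7.90% of all tested genes. The groups did not overlap for 16 of the 39 genes with the knockout above and 7 with it below, where 43.3% of all tested genes had no overlap (21.2% above, 22.1% below). The median log2 change was 0.071, and 0.0029 over all tested genes. Of the 36 members with a mean of at least 50 counts, 15 were called when the fit was limited to such genes, a share of 41.7% beside 28.5% of all genes in that fit.

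**Figure D1:**
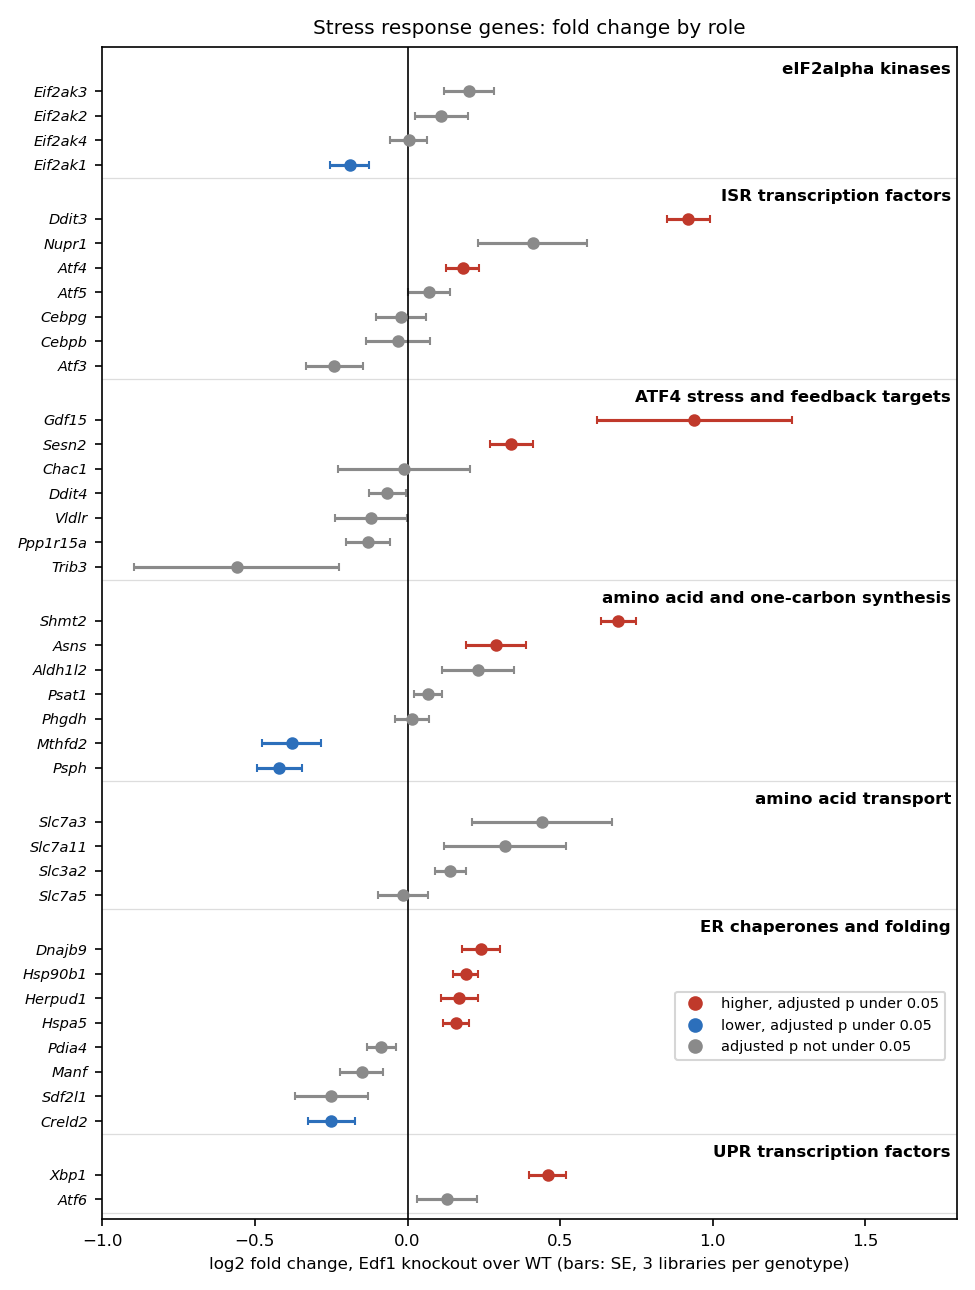
The plot gives the log2 change of the 39 tested genes (x axis, knockout over WT, bars are the standard error, 3 libraries per genotype) grouped by role, with genes called higher in red, called lower in blue and not called in grey. Ddit3 at 0.92 and Shmt2 at 0.69 lie to the right of 0, Psph at -0.42 and Mthfd2 at -0.38 to the left, and no role lies wholly on 1 side with every gene called.

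The 4 eIF2alpha kinases were close to their WT level. Eif2ak1, the heme-regulated kinase HRI, was at 82.5, 90.9 and 79.8 CPM in WT and at 70.5, 76.2 and 74.2 CPM in the knockout. All 3 knockout libraries lay below all 3 WT libraries, and the log2 change was -0.19 (SE 0.0632, adjusted p 0.0395). This call was lost without WT replicate 1 or without any 1 of the knockout libraries (adjusted p up to 0.164). Of its exon bases, 8.59% overlap Aimp2 on the opposite strand, and Aimp2 had a log2 change of -0.082 (adjusted p 0.636).

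Eif2ak3, the ER kinase PERK, was at 40.9, 33.5 and 41.3 CPM in WT and at 47.1, 43.6 and 43.6 CPM in the knockout. The groups did not overlap, but the log2 change of 0.20 (SE 0.0819) had an adjusted p of 0.0852. Eif2ak2, the kinase PKR that responds to double-stranded RNA, was at 41.6, 34.6 and 42.7 CPM in WT and at 43.0, 39.6 and 46.3 CPM in the knockout, with overlapping groups (log2 change 0.11, SE 0.0865, adjusted p 0.378). Both kinases were lowest in WT replicate 2. Eif2ak4, the amino acid sensor GCN2, was at 43.4, 41.4 and 42.9 CPM in WT and at 44.6, 42.2 and 41.5 CPM in the knockout. Its log2 change was 0.0031, with a 95% interval of -0.13 to 0.14 and an adjusted p of 0.978. With the replicate number as a block, Eif2ak3 passed the threshold at 0.21 with an adjusted p of 0.0492.

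Among the transcription factors, Ddit3 had the smallest adjusted p of the 39 tested genes. Ddit3 encodes CHOP, a C/EBP family factor that PERK and ATF4 signalling raise and that is known for promoting cell death under long ER stress. It was at 18.7, 18.2 and 17.9 CPM in WT and at 33.8, 35.1 and 34.6 CPM in the knockout, so every knockout library stood far above every WT library. The log2 change was 0.92 (SE 0.0716, adjusted p 2.25e-06), a 1.89-fold rise from 18.3 ± 0.415 to 34.5 ± 0.653 CPM (mean ± SD, n = 3 each). It passed the threshold in all 13 alternatives, between 0.90 and 0.94. In GRCm38 the gene lies on chromosome 10 from 127290774 to 127296288, plus strand, and 68 of its exon bases (3.97%) overlap Mars1 (Mars in the annotation) on the opposite strand. Mars1 rose less, with a log2 change of 0.24 (adjusted p 0.0138).

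Atf4, the central factor of the integrated stress response, was at 81.4, 79.3 and 76.6 CPM in WT and at 92.7, 87.9 and 88.3 CPM in the knockout. The groups did not overlap, and the rise was 1.13-fold (log2 change 0.18, SE 0.0550, adjusted p 0.0301). The Atf4 call was lost without WT replicate 3 or any 1 of the knockout libraries (adjusted p up to 0.135). The other 5 factors were not called. Atf3, a factor that stress induces through ATF4, was at 12.5 to 13.1 CPM in WT and 10.6 to 11.4 CPM in the knockout, with a log2 change of -0.24 (adjusted p 0.0803). Nupr1, a small nuclear stress protein, had 0.41 (SE 0.178, adjusted p 0.107) at 50 to 115 counts per library. Atf5, Cebpg and Cebpb, which encode bZIP factors, the last 2 being C/EBP partners of ATF4, had 0.071, -0.021 and -0.031, each with overlapping groups. For Cebpb 20.7% of the exon bases overlap Tmem189 on the opposite strand.

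Of the 7 tested stress and feedback targets of ATF4, Sesn2 and Gdf15 were called higher by edgeR. None was called lower by edgeR, DESeq2 or limma voom, and 0 were lower at an unadjusted p under 0.05 in edgeR. The share called, 28.6%, was near the 26.9% of all tested genes, and the median of the list was -0.066. Sesn2 encodes sestrin 2, which restrains mTORC1 when leucine is short and is also a p53 target. It was at 32.3, 34.7 and 34.2 CPM in WT and at 41.4, 45.9 and 40.8 CPM in the knockout, a log2 change of 0.34 (SE 0.0713, adjusted p 0.00357) with no overlap of the groups. The rise of Sesn2 passed in all 13 alternatives, between 0.29 and 0.38.

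Gdf15, a secreted stress cytokine, was counted 32, 7 and 14 times in WT and 27, 24 and 58 times in the knockout, or 1.20, 0.544 and 0.756 CPM and 1.66, 1.34 and 2.05 CPM. Its log2 change of 0.94 was as large as that of Ddit3, but with an SE of 0.321 and an adjusted p of 0.0473. The call was lost in DESeq2 (0.97, adjusted p 0.0713) and without any 1 library other than WT replicate 1 (adjusted p up to 0.211), so it rests on few counts.

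The other 5 tested targets were not called, and Trib3 had the lowest value of the 39 tested genes, with a wide interval. Chac1, a glutathione-degrading enzyme that ATF4 and CHOP raise sharply under ER stress, was at 2.15, 1.94 and 2.65 CPM in WT and at 2.03, 2.23 and 2.41 CPM in the knockout. Its log2 change was -0.012, with a 95% interval of -0.48 to 0.46, whose upper end lies under the value of Ddit3. Trib3, a pseudokinase that feeds back on ATF4, had 14 to 32 counts in WT and 8 to 33 in the knockout (log2 change -0.56, SE 0.336, adjusted p 0.246). Ppp1r15a, the phosphatase subunit GADD34 that reverses eIF2alpha phosphorylation, was at 48.1 to 57.9 CPM in WT and 46.0 to 47.8 CPM in the knockout (-0.13, adjusted p 0.230). Ddit4, an mTORC1 inhibitor, had -0.066 (adjusted p 0.458) and the lipoprotein receptor gene Vldlr -0.12 (adjusted p 0.517). Fgf21, a secreted metabolic hormone, had 3, 1 and 0 counts in WT and 0 in each knockout library. Those counts are at or under the floor of 3 in every library, so Fgf21 was not tested and no fold is given. In WT replicate 1 the 3 counts are 0.113 CPM, and in smaller libraries such as WT replicate 2 the same floor stands for a higher CPM.

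**Figure D2:**
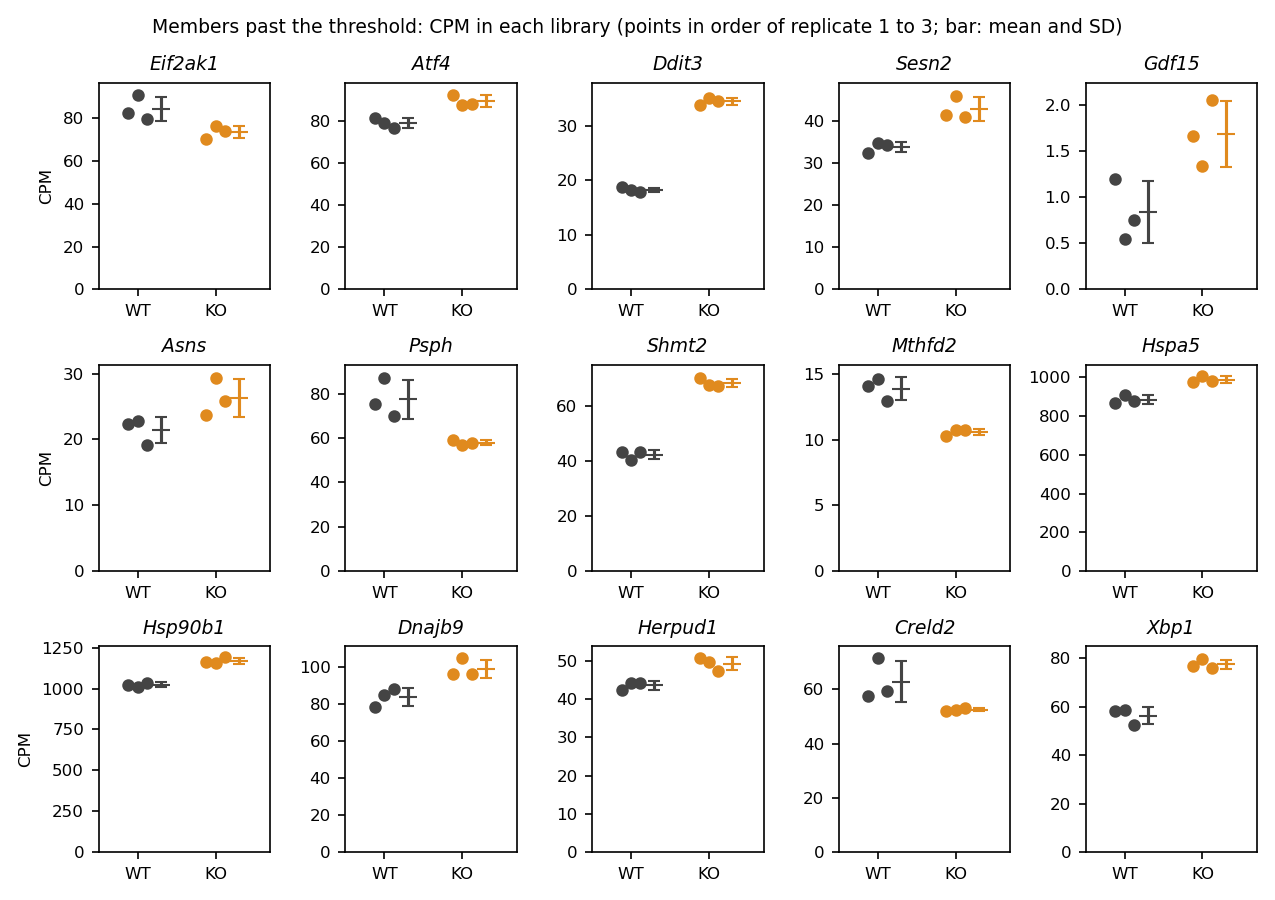
Each panel gives the CPM (y axis, from 0) of 1 of the 15 called genes in the 3 WT and the 3 knockout (KO) libraries, points in order of replicate and the bar at the mean with its SD. The knockout points lie far above the WT points for Ddit3 and Shmt2, and Gdf15 has the widest spread relative to its mean.

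The enzymes of amino acid and one-carbon synthesis moved apart from each other, with 2 called higher and 2 lower of 7. That share of 57.1% stood beside 26.9% of all tested genes. Shmt2, the mitochondrial enzyme that turns serine into glycine and a one-carbon unit, was at 43.2, 40.6 and 43.4 CPM in WT and at 70.2, 67.9 and 67.6 CPM in the knockout. Every knockout library was above every WT library, and the 1.61-fold rise (log2 change 0.69, SE 0.0574, adjusted p 3.41e-06) passed in all 13 alternatives. Mthfd2, which acts on the one-carbon unit that Shmt2 makes in the same compartment, went the other way. It was at 14.1, 14.6 and 12.9 CPM in WT and at 10.3, 10.7 and 10.7 CPM in the knockout, a log2 change of -0.38 (SE 0.0957, adjusted p 0.0105). Aldh1l2, a mitochondrial formyltetrahydrofolate dehydrogenase, was at 8.70 to 11.1 CPM in WT and 11.2 to 13.5 CPM in the knockout (0.23, adjusted p 0.175), and 14.1% of its exon bases overlap D10Wsu102e on the opposite strand, a gene called higher (0.34, adjusted p 0.0317).

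In the serine synthesis pathway from glycolysis, 1 of 3 enzymes was called. Its first and second enzymes, Phgdh and Psat1, are abundant in radial glia and astrocytes. Phgdh was at 314 to 367 CPM in WT and 339 to 341 CPM in the knockout, a log2 change of 0.015 with a 95% interval of -0.11 to 0.14. Psat1 was at 291 to 305 CPM and 300.3 to 318 CPM (0.067, adjusted p 0.312). For Phgdh 55.8% of the 31-base words of its transcripts also occur in another annotated gene, mainly Gm7901, so its reads may be shared with that copy. Psph, the last enzyme of the pathway, fell: it was at 75.3, 87.3 and 70.1 CPM in WT and at 59.1, 56.7 and 57.9 CPM in the knockout, a log2 change of -0.42 (SE 0.0749, adjusted p 0.00131). The groups did not overlap and the fall passed in all 13 alternatives, between -0.48 and -0.33. Of the Psph exon bases, 10.4% overlap Cct6a on the opposite strand, and Cct6a had a log2 change of -0.15 (adjusted p 0.0308).

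Asns encodes asparagine synthetase, a well-known target of ATF4. It was at 22.4, 22.8 and 19.2 CPM in WT and at 23.7, 29.4 and 25.9 CPM in the knockout. The knockout libraries were all above WT, by a small margin for replicate 1, and the log2 change was 0.29 (SE 0.0980, adjusted p 0.0423). The Asns call was lost without WT replicate 1 or 3 or knockout replicate 2 or 3 (adjusted p up to 0.179).

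None of the 4 amino acid transporters was called by edgeR, DESeq2 or limma voom, and 1 of them, Slc3a2, had an unadjusted p under 0.05. Of all tested genes, edgeR called 26.9%. Slc3a2, the heavy chain shared by several transporters, was at 366 to 376 CPM in WT and 391 to 440.3 CPM in the knockout, with no overlap and a log2 change of 0.14 (adjusted p 0.0560). It passed under 5 of the 13 alternatives, among them without WT replicate 2 (0.15, adjusted p 0.0120). Its leucine-transporting light chain Slc7a5 had -0.014 (adjusted p 0.918). The cystine transporter Slc7a11 had 0.32 (95% interval -0.11 to 0.76, adjusted p 0.261) at 29 to 86 counts, and the cationic amino acid transporter Slc7a3 had 0.44 (SE 0.230, adjusted p 0.185) at 36 to 108 counts.

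The ER chaperones and folding factors were split into 4 that rose by a small amount, 1 that fell and 3 that were not called but had values below 0. Hspa5 encodes BiP, the Hsp70 chaperone of the ER. It was at 868, 911 and 877 CPM in WT and at 977, 1009 and 982 CPM in the knockout, a 1.12-fold rise (log2 change 0.16, SE 0.0427, adjusted p 0.0148). Hsp90b1, the ER Hsp90 protein GRP94, was at 1024, 1007 and 1036 CPM in WT and at 1162, 1158 and 1190.3 CPM in the knockout (0.19, SE 0.0413, adjusted p 0.00401). Neither gene had overlapping groups. The call of Hspa5 was lost without WT replicate 1 or knockout replicate 1 or 2 (adjusted p up to 0.0702), and that of Hsp90b1 was not lost in any of the 13 alternatives. Of the Hsp90b1 exon bases, 10.3% overlap 1810014B01Rik on the opposite strand.

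Dnajb9, a J-domain cochaperone of BiP, was at 78.8, 85.3 and 88.2 CPM in WT and at 96.3, 105 and 96.6 CPM in the knockout (0.24, SE 0.0622, adjusted p 0.0130). Herpud1, a factor of ER-associated degradation, was at 42.3, 44.1 and 44.3 CPM in WT and at 50.6, 49.6 and 47.4 CPM in the knockout (0.17, SE 0.0597, adjusted p 0.0466). Both groups of 3 were apart in each gene. The Dnajb9 call was lost without WT replicate 1 or knockout replicate 2 (adjusted p up to 0.0722), and the Herpud1 call in 8 of the 13 alternatives, DESeq2 (adjusted p 0.0920) and all left-out libraries but WT replicate 2 included. For Dnajb9 10.8% of its 31-base words occur in another gene, mainly Gm6568.

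Creld2, a secreted ER folding factor that ER stress raises, fell: it was at 57.7, 71.4 and 59.3 CPM in WT and at 52.0, 52.5 and 53.3 CPM in the knockout (log2 change -0.25, SE 0.0768, adjusted p 0.0320). WT replicate 2 stood above the other WT libraries, and without it the value was -0.15. The Creld2 call was lost without any 1 of the knockout libraries (adjusted p 0.0823 without replicate 3, and higher without the others). Manf, a secreted ER stress protein, was at 177 to 215 CPM in WT and 168 to 179 CPM in the knockout (-0.15, adjusted p 0.129). Sdf2l1, a cofactor of BiP, was at 17.8 to 23.9 CPM and 15.5 to 18.4 CPM (-0.25, adjusted p 0.153). Pdia4, a disulfide isomerase, was at 575 to 627 CPM and 552 to 572 CPM (-0.086, adjusted p 0.197). WT replicate 2 was the highest WT library for 5 of the 8 ER genes, a share of 62.5% where it was the highest for 43.5% of all tested genes.

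The 2 transcription factors of the unfolded protein response differed in size of change. Xbp1, whose mRNA is spliced by the ER sensor IRE1, was at 58.1, 58.4 and 52.3 CPM in WT and at 76.5, 79.5 and 75.9 CPM in the knockout. It rose 1.37-fold with no overlap (log2 change 0.46, SE 0.0606, adjusted p 1.27e-04) and passed in all 13 alternatives, between 0.41 and 0.49. Atf6, the membrane-bound factor that is cut in the Golgi under ER stress, was at 30.2, 25.6 and 32.9 CPM in WT and at 34.1, 34.6 and 29.3 CPM in the knockout, with overlapping groups (0.13, SE 0.0978, adjusted p 0.359).

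The amino acid genes of ATF4, which join the 7 synthesis enzymes and the 4 transporters, were then set against the 8 ER chaperones. Of the 11 amino acid genes 2 were called higher and 2 lower, with a median log2 change of 0.14. Of the 8 ER genes 4 were called higher and 1 lower, with a median of 0.037. These are shares of 36.4% and 62.5%, beside 26.9% of all tested genes. The difference of the medians was 0.11, and it ran from 0.067 to 0.14 when single libraries were left out. Both medians lie within 0.2 of 0 on the log2 scale, and neither list moved 1 way.

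For each library, the mean log2 CPM of a list was taken after each gene was centred on its own mean over the 6 libraries. The amino acid genes were at -0.035, -0.046 and -0.11 in WT and at 0.084, 0.041 and 0.062 in the knockout. The ER chaperones were at -0.07, 0.10 and -0.033 in WT and at 0.0092, 0.017 and -0.019 in the knockout, with WT replicate 2 the highest of the 6 libraries. The knockout libraries were thus above WT for the amino acid genes. For the ER genes they fell within the WT range only through WT replicate 2. WT replicates 1 (-0.07) and 3 (-0.033) lay below every knockout library. Summed as CPM without centring, the ER genes reached at most 2985 in a WT library (replicate 2). Their lowest knockout sum was 3076 (replicate 1), so the sums did not overlap. The most abundant genes weigh most in such a sum. These list means and sums are a description with no test.

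**Figure D3:**
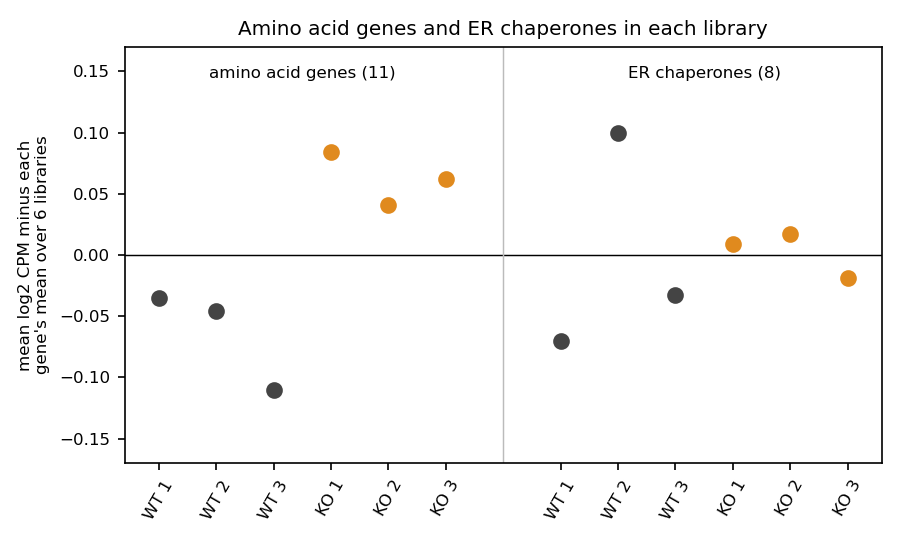
The plot gives, for each library (x axis), the mean log2 CPM over the 11 amino acid genes (left) and the 8 ER chaperones (right) after centring each gene on its mean over the 6 libraries (y axis), WT in dark grey and knockout (KO) in orange. The amino acid genes run from -0.11 to 0.084 with the knockout libraries on top, while for the ER chaperones WT replicate 2 is highest at 0.10.

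Promoter sequence was examined because genes of the same role moved in both directions. RefSeq promoter windows of 250 bases before and 50 bases after a gene's start (GRCm38.p6) were found for 35 of the 40 genes. Each was searched on both strands for the ER stress response element, CCAAT and CCACG set 9 bases apart, to which ATF6 binds with NF-Y, and for TGATGNAAN, the core of the C/EBP-ATF element to which ATF4 binds with C/EBP partners. The ER element was in 0.185% of the 11342 tested genes with a window and in 3 of the 35 stress genes, all 3 of them ER chaperones of the 7 with a window. They are shown because the same letters stand before Hspa5 and Hsp90b1, which rose, and Creld2, which fell. Each line runs 5′ to 3′ on the strand of the gene, with the element in capitals, and an element read on the other strand appears as its reverse complement.

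Hspa5, chr2:34771995-34772073, plus strand: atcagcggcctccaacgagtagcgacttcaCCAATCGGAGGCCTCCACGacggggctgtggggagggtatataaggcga
Hsp90b1, chr10:86705608-86705686, minus strand: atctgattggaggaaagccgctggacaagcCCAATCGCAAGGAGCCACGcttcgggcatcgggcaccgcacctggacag
Hsp90b1, chr10:86705503-86705581, minus strand: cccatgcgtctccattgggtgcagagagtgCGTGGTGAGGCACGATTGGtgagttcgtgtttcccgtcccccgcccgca
Creld2, chr15:88819490-88819568, plus strand: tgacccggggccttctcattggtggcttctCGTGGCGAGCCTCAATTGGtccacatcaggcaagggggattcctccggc

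Counted from the gene's start, with bases before it negative, the ER element lay at -65 to -47 in Hspa5, at -212 to -194 and again at -107 to -89 in Hsp90b1, and at -126 to -108 in Creld2. Hsp90b1 alone among the 35 had this element at more than 1 place. Dnajb9 and Herpud1, which also rose, had no match to this element at this spacing in their windows. Other forms of ER stress element were not searched for, so the absence says only that these letters are not there.

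The C/EBP-ATF core was in 2.73% of the tested genes with a window and in 9 of the 35 stress genes. The 9 were Atf3, Nupr1, Trib3, Chac1, Vldlr, Fgf21, Asns, Slc7a11 and Herpud1. Asns and Herpud1 were called higher, Fgf21 was not tested, and the others were tested and not called. Ddit3, Sesn2, Shmt2, Xbp1 and Hsp90b1, the 5 genes called higher in all 13 alternatives, had no match to this core in the window, which says only that these letters are not there. The matches of Asns and Herpud1 are shown beside those of Chac1 and Slc7a11, with the core in capitals. Slc7a11 has its core at -66 to -58 in capitals and a second match, on the other strand at -48 to -40, which stands in lower case in the same line.

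Asns, chr6:7693210-7693262, minus strand: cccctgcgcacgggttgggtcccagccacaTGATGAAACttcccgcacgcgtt
Herpud1, chr8:94386286-94386354, plus strand: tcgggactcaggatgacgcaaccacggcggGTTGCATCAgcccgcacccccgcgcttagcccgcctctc
Chac1, chr2:119351018-119351086, plus strand: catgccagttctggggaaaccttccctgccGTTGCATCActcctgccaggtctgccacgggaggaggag
Slc7a11, chr3:50443641-50443709, minus strand: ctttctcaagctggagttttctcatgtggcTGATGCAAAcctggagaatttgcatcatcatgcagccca

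Herpud1, Chac1 and Vldlr hold the same 9 letters, and their log2 changes were 0.17, -0.012 and -0.12. Herpud1 was called higher, while Chac1 and Vldlr were not called. Chac1 also changed direction around 0 in some alternatives. The values below 0 thus do not show that genes with the same match moved in opposite directions.

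Levels were compared between genes as CPM per kilobase of exon. The ER chaperones Hsp90b1, Pdia4 and Hspa5 were the most abundant in WT, at 254, 249 and 209 CPM per kilobase, followed by Phgdh at 136 and Slc3a2 at 105. Atf4 stood at 33.5, Xbp1 at 17.3 and Ddit3 at 10.7, rank 20 of 40, in WT. In the knockout Ddit3 was at 20.1 CPM per kilobase. The lowest tested genes in WT were Slc7a11 at 0.186, Gdf15 at 0.451 and Trib3 at 0.605. Of the kinases, Eif2ak1 was the most abundant at 14.9 CPM per kilobase, and Eif2ak2, Eif2ak3 and Eif2ak4 were at 7.76, 6.40 and 5.71.

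**Figure D4:**
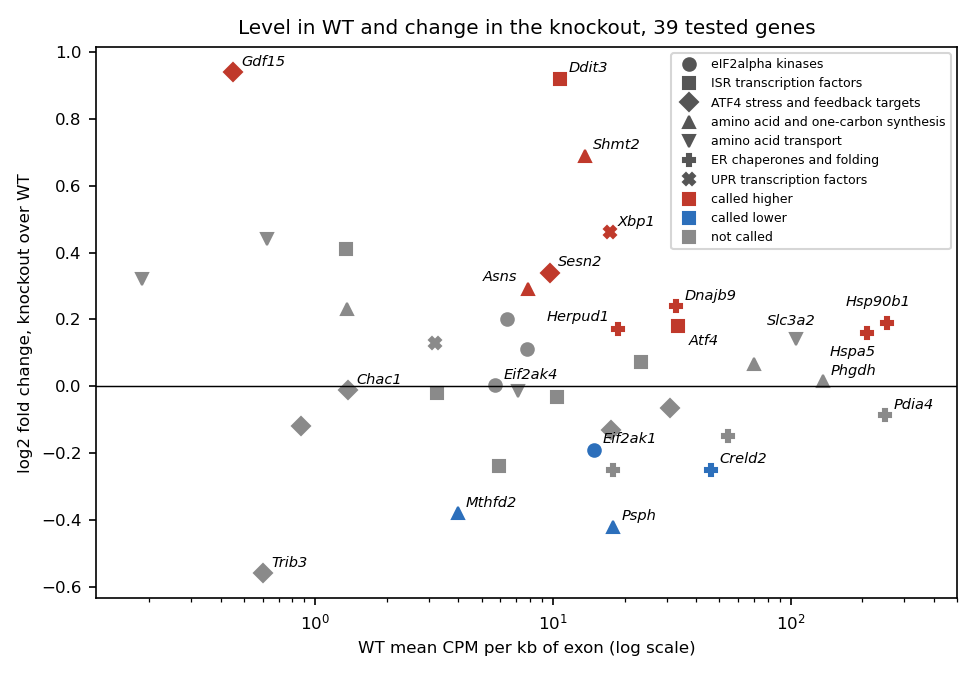
The plot sets the WT level in CPM per kilobase of exon (x axis, log scale) against the log2 change (y axis) for the 39 tested genes, with the role as marker shape and the call as colour. Gdf15 at 0.94 is among the genes with the lowest level, Ddit3 at 0.92 and Shmt2 at 0.69 are at middle levels, while the most abundant genes, Hsp90b1, Pdia4 and Hspa5, lie between -0.086 and 0.19.

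Other genes of the 2 pathways were counted from lists by function. Of 19 genes for eIF2, its exchange factor eIF2B and the partners of the kinases, edgeR, DESeq2 and limma voom called none higher and 2 lower (at an unadjusted p under 0.05 in edgeR 1 was higher and 4 lower). The share called was 10.5%, under the 26.9% of all tested genes. The called genes were the eIF2B subunits Eif2b4 (log2 change -0.41, adjusted p 4.89e-04) and Eif2b2 (-0.31, adjusted p 0.00627). The list median was -0.10. With no overlap, 9 of its genes had the knockout below WT and 3 above, beside 22.1% and 21.2% of all tested genes. Of 18 aminoacyl-tRNA synthetases, many of which ATF4 is known to raise, 1 was called higher and 2 lower. That share of 16.7% was also under the 26.9% of all tested genes. Mars1 was called higher (0.24) and Cars (-0.30, adjusted p 0.00177) and Qars (-0.21, adjusted p 0.0322) lower, with a list median of -0.04.

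Of 24 other ATF4 targets 3 were called higher and 4 lower, a share of 29.2% close to the background. The higher genes were the growth factor Vegfa (0.70, adjusted p 2.56e-04), the glutamine transporter Slc1a5 (0.67, adjusted p 0.0288) and the mitochondrial folate enzyme Mthfd1l (0.42, adjusted p 0.0232). The 3 lowest were Cth (-0.35, adjusted p 0.0365, and 0.0518 in DESeq2) and Cbs (-0.33, adjusted p 0.00490), the enzymes that make cysteine from homocysteine, and the glycine transporter Slc6a9 (-0.27, adjusted p 0.0145). The mitochondrial one-carbon genes were thus not alike: Shmt2 and Mthfd1l rose and Mthfd2 fell. None of 9 mitochondrial chaperone and protease genes was called by edgeR, DESeq2 or limma voom, and 1 had an unadjusted p under 0.05, with the knockout lower. The share of all tested genes called by edgeR was 26.9%.

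On the ER side, 3 of 7 tested sensor and processing genes were called higher and none lower by edgeR, DESeq2 and limma voom, and at an unadjusted p under 0.05 in edgeR 4 were higher and 0 lower. The share of 42.9% called higher stood beside 12.7% of all tested genes, over 7 genes. Those called were Creb3l2 (0.54, adjusted p 8.16e-04) and Creb3l1 (0.50, adjusted p 5.68e-04), which encode ER-bound transcription factors related to ATF6, and Mbtps1 (0.16, adjusted p 0.0402), the Golgi protease that cuts ATF6. Ern2 had no count in any library. Of 18 other folding genes 4 were called higher and 1 lower, a share of 27.8% near the background. The oxidase Ero1a (0.40, adjusted p 0.00273), Selenok (0.38, adjusted p 9.78e-05), the prolyl isomerase Fkbp14 (0.32, adjusted p 0.0299) were the 3 highest, and Tmem50b was called lower in edgeR (-0.17, adjusted p 0.0441) but not in DESeq2 (adjusted p 0.0961). Of 23 degradation and translocation genes 3 were called higher and 2 lower, a share of 21.7% that is under the 26.9% of all tested genes, with Os9, a lectin of ER-associated degradation, the highest (0.59, adjusted p 1.44e-06) and Ssr2, a subunit of the translocon-associated complex, the lowest (-0.31, adjusted p 0.00204). Sel1l, the partner of Os9 in the same ligase complex, rose as well (0.27, adjusted p 0.00466), and Edem1, which trims sugars of misfolded proteins, fell (-0.25, adjusted p 0.0115). Ssr3, a subunit of the same complex as Ssr2, went the other way from Ssr2 (0.16, adjusted p 0.0299).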

How the data were processed

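RNA was sequenced from 3 WT and 3 Edf1 knockout cultures, and TRIzol and an MGIEasy mRNA kit were used per the labels. The deposited table holds raw read counts per gene symbol, with 1 column per library. Per the submitters' processing notes, the build was GRCm38 and FastQC 0.11.2, cutadapt 1.11 and HISAT2 2.1.0 were used. The counting program, annotation and strand setting are not given in the sources used here, so reads of genes that overlap on opposite strands may be mixed. Rows without a gene name numbered 0.

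Counts were analysed in R 4.3.3 with edgeR 4.0.16. The filterByExpr function kept 14243 of 22851 genes, TMM factors were 0.985 to 1.01, and the quasi-likelihood test compared the genotypes without covariates. P-values were adjusted by Benjamini-Hochberg across the 14243 genes, and 0.05 was the threshold. The standard error of a log2 change was taken from its F statistic, and 95% intervals use the fit's degrees of freedom. A prior count of 2 was used for log2 CPM. Exon lengths, overlaps and 31-base words came from GENCODE M21 (GRCm38). The 13 alternatives were DESeq2 size factors, library size alone, 2 filters (1 count in total, a mean of 50 counts), DESeq2 1.42.0, limma 3.58.1 (voom), the replicate block and 6 fits that each left out 1 library. A threshold of 0.01 was tried for counts. The fits were tested on simulated counts.

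The members, lists and tests were chosen with earlier results of these data known. All 40 members are given. Values in every library are given for called members, the 4 kinases, Atf4, Ddit3, Xbp1, Atf6, Hspa5, Asns and any member at or under 3 counts in a library, and for Chac1, which was added after its values were seen. From each further list at most the 3 highest and 3 lowest called genes are named. The floor on counts covers counting error only. The intervals of log2 changes come from the fit and also include the spread between libraries.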

Additional observations from a re-analysis of the deposited data

How the results depend on the processing

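Of the 15 called members, 7 (Ddit3, Sesn2, Psph, Shmt2, Mthfd2, Hsp90b1 and Xbp1) were called in all 13 alternatives, and none of the 15 changed direction. The other 8 lost the call in at least 1, mostly where a library was left out, which leaves fewer samples. The count of called members ran from 7 to 15 when single libraries were left out, with 5 to 11 higher and 2 to 4 lower. That of all genes ran from 2658 to 4340 in the same fits. The member count was lowest without knockout replicate 2, at 7 beside 2662 of all genes. At an adjusted p under 0.01 in edgeR, 6 of the 39 tested members were called, of which 5 were higher and 1 lower. Of all 14243 tested genes 2213 were called there (965 higher, 1248 lower), a share close to that of the members. The median of the amino acid genes ran from 0.091 to 0.18 when single libraries were left out, and that of the ER chaperones from 0.019 to 0.066. Median log2 fold changes of all genes were 0.0029 with TMM, 0.0048 with DESeq2 size factors and 0.016 with library size alone.

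Of the uncalled members, 6 changed direction around 0 in some alternative, none of them past the threshold. With limma voom Eif2ak4 was -0.0029 and Chac1 0.0022. Across the left-out libraries Eif2ak4 ran from -0.026 to 0.029, Chac1 from -0.082 to 0.12, Cebpg from -0.068 to 0.023, Cebpb from -0.11 to 0.065, Phgdh from -0.03 to 0.079 and Slc7a5 from -0.075 to 0.043. The cause was not tested.

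The replicate number as a block gave 16 called members. Of all genes, 4065 were called with the block and 3833 in the reported fit. Among the 16 members, 14 were among the 15 reported: Eif2ak3 (0.21) and Slc3a2 (0.14, adjusted p 0.0329) were added, Herpud1 (0.17, adjusted p 0.0577) was lost, and the block changed no other call. The deviations of libraries with the same number correlated at 0.0693, 0.0604 and 0.0372, and the numbers were not taken as pairs. The lowest counts were those of Fgf21 (0 to 3), Gdf15 (7 to 58), Trib3 (8 to 33), Chac1 (25 to 68), Slc7a11 (29 to 86) and Slc7a3 (36 to 108), and apart from Fgf21, which was not tested, their standard errors ran from 0.20 to 0.336.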
